A study of Homo sapiens with 12 samples.

Results

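CTCF regions that were missing only in ΔSCC4 cells were described in a chromatin immunoprecipitation sequencing (ChIP-seq) study of HAP1, a near-haploid human leukaemia line. The regions were chosen by the peak lists themselves. The 4 CTCF peak lists were merged where intervals overlapped by at least 1 bp, and a region was taken when the wild-type, ΔWAPL and ΔWAPL/ΔSCC4 lists each held a peak in it and the ΔSCC4 list held none. This gave 3715 of 53945 CTCF regions, called ΔSCC4-missing regions here. The main reference was the 34622 regions with a peak in all 4 genotypes, called shared regions.

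Chromatin had been precipitated with antibodies against CTCF, against the cohesin subunit SMC1, or with non-specific IgG, in 4 genotypes that gave 12 libraries. Wild-type cells were the parental HAP1 line, which has impaired p53 function. ΔWAPL cells were a clone made with CRISPR that lacks the cohesin release factor WAPL. ΔSCC4 cells lack SCC4, the product of MAU2, and per the study's methods and results also hold very little of its partner SCC2. ΔWAPL/ΔSCC4 cells were made by deleting SCC4 in the ΔWAPL clone, so that both of the last lines lack the loader subunit. The latter are called double-knockout cells below. No replicate library was analysed for any genotype and antibody, so no test between genotypes was possible, and a difference between genotypes cannot be told apart from a difference between clones, precipitations or libraries. Peak lists do not measure the products of the deleted genes, so the genotypes were taken from the labels alone. The genome-wide average recovered from the CTCF lists was 6.53 to 8.41 reads per kb, with 7.42 in ΔSCC4 cells, so the ΔSCC4 library was not the shallowest.

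CTCF is a zinc-finger protein that binds a long, directional DNA motif and stays at many of its sites in most cell types. Cohesin is a ring of SMC1, SMC3 and RAD21 that is loaded onto DNA with the help of the SCC2/SCC4 complex, moves along it, and is held up at CTCF sites, where the 2 proteins anchor chromatin loops. WAPL opens the ring and releases cohesin again. Loss of the loader is known to lower the amount of cohesin on DNA, and without WAPL cohesin stays there for longer.

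The DNA under the strongest ΔSCC4-missing regions is shown first, because these are the sites where a peak of full height in 3 genotypes had no counterpart in the fourth. Regions were ranked by the lowest of their 3 −log10 q values, the peak caller's adjusted significance, on chromosomes 1 to 22 and X and away from IgG peaks. Of the first 10, 9 are shown. Each line gives the best motif match with 11 bases on each side, read 5′ to 3′ on the strand of the match from GRCh37. Capitals mark the 19 bases of the match. The most frequent base at each position of the motif, learned from the strongest wild-type CTCF peaks, spells TGGCCACCAGGGGGCGCTG.
ZDHHC1 intron, chr16:67433279-67433895: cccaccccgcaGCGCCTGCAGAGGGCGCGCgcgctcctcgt
NFATC4 intron, chr14:24834748-24835239: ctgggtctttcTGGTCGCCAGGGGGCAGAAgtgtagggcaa
LDLRAD3 intron, chr11:36153301-36153663: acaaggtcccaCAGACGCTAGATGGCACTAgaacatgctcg
PTPRN2 intron, chr7:157668125-157668613: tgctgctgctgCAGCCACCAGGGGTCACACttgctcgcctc
PCDHA11 start, chr5:140248288-140248686: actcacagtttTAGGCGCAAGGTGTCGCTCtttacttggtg
LINC00668 exon, chr18:6919963-6920434: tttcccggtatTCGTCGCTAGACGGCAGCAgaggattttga
ENSG00000250195 intron, chr4:139840260-139840666: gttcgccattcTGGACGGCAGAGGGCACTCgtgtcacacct
intergenic, nearest coding gene KCNJ15, chr21:39727903-39728364: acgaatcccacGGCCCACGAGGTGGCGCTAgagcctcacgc
intergenic, nearest coding gene GALR1, chr18:75362737-75363191: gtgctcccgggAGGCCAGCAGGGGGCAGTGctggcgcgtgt
All 9 held a match, on the plus strand at NFATC4, PCDHA11 and LINC00668 and on the minus strand at the others. The match of the ZDHHC1 region held 3 CpG dinucleotides and that of the PTPRN2 region none.

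The first 10 regions had CTCF peaks of similar height in the 3 genotypes that the rule required. Fold enrichment, the ratio of reads at the summit to the local background, ran from 14.5 to 19.7 for wild-type, from 14.2 to 21.3 for ΔWAPL and from 14.5 to 23.7 for double-knockout cells. Scaled to the average coverage of the ΔSCC4 library, their wild-type summits stood for 48.6 to 79.1 reads, whereas the lowest 5% of the ΔSCC4 peaks had 11 reads or fewer. The SMC1 lists, which the rule did not use, held a peak at 7 of the 10 for wild-type, 10 for ΔWAPL, 0 for ΔSCC4 and 10 for double-knockout cells.

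**Figure D1:**
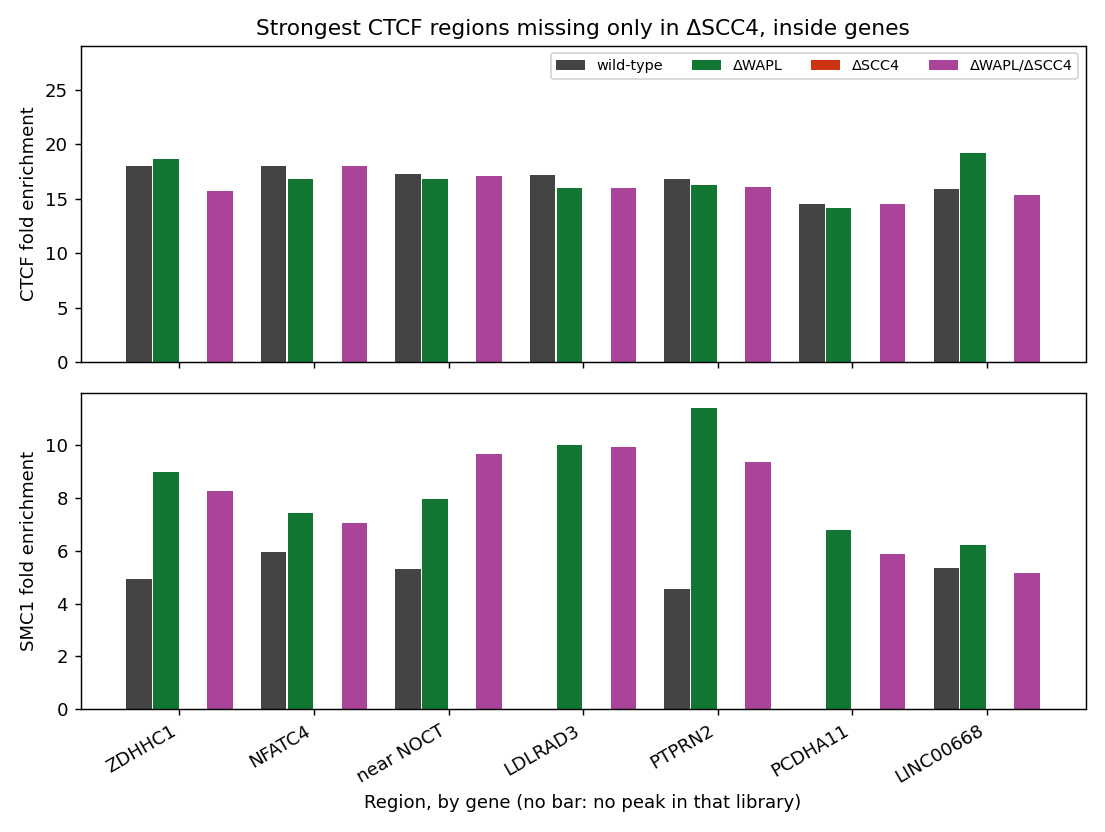
Fold enrichment (ratio to local background, linear axes from 0) of CTCF (top) and SMC1 (bottom) at the 7 of the 10 strongest ΔSCC4-missing regions that lay inside an annotated gene, in the 4 genotypes with 1 library each. No bar means no peak in that library, and the ΔSCC4 series is empty in both panels. The CTCF bars were the criterion of choice, while ΔWAPL SMC1 bars stand over all 7 regions and wild-type SMC1 bars over 5.

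The strongest of them lay on the long arm of chromosome 18, 21 bp outside the start of the gene model ENSG00000286727 and 397254 bp from that of GALR1, the nearest protein-coding gene. CTCF fold enrichment there was 19.7, 21.3 and 23.7 in the wild-type, ΔWAPL and double-knockout libraries. SMC1 had no peak in wild-type cells, 13.9-fold enrichment in ΔWAPL and 8.47 in double-knockout cells, so that the SMC1 peak was found only in the 2 genotypes without WAPL. The nearest ΔSCC4 CTCF peak was 98068 bp away.

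In an intron of ZDHHC1, which encodes a member of the DHHC palmitoyltransferase family, CTCF fold enrichment was 18.0, 18.6 and 15.7 in these 3 libraries. SMC1 fold enrichment was 4.94, 8.998 and 8.26 in the same order. NFATC4, a calcium-regulated transcription factor, held its region 153 bp from a start site, with CTCF values of 18.0, 16.8 and 18.0 and SMC1 values of 5.94, 7.43 and 7.05. In PTPRN2, a phosphatase-like receptor of secretory vesicles, CTCF values were 16.8, 16.3 and 16.1, and SMC1 values were 4.54, 11.4 and 9.38. In each of these 3 genes the SMC1 peak was lowest in wild-type cells and absent from the ΔSCC4 list. LDLRAD3, which encodes a receptor of the low-density lipoprotein receptor family, had no SMC1 peak in wild-type cells but values of 10.0 and 9.92 in ΔWAPL and double-knockout cells.

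The ΔSCC4 list lacked far more regions of the other 3 lists than any other list did. Of the 38337 regions with a peak in wild-type, ΔWAPL and double-knockout cells, 9.69% had none in ΔSCC4 cells, a share that the rule itself fixes. The same count for the other genotypes gave 611 regions missing only in wild-type (1.73%), 599 only in ΔWAPL (1.70%) and 345 only in double-knockout cells (0.987%). The ΔSCC4 list was also the shortest, with 37625 CTCF peaks against 43050 to 47608. When only the 37625 highest-ranked peaks of every list were kept, 1319 regions were missing only in ΔSCC4, or 4.01%, and all of them were among the 3715. The shares for the other 3 lists were then 1.94% to 3.06%, so the excess in ΔSCC4 was smaller but still above each of the others.

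Most ΔSCC4-missing regions were weak where they were present. Median CTCF fold enrichment was 6.24 (quartiles 5.28 and 7.62) for wild-type cells, 6.86 for ΔWAPL and 6.81 for the double knockout. At shared regions the medians were 14.3, 13.6 and 13.5, and 12.5 in ΔSCC4 cells. The highest wild-type value among ΔSCC4-missing regions was 19.7. The share that ΔSCC4 lacked fell with wild-type fold enrichment, from 51.8% of 1259 regions under 5 to 12.1% of 4313 between 8 and 10 and 0.216% of 9743 between 15 and 20. None of the 6146 regions of 20 or more was missing, which allows up to 3 counts or 0.0488%. These values belong to the contrast that chose the regions and are given as a description.

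**Figure D2:**
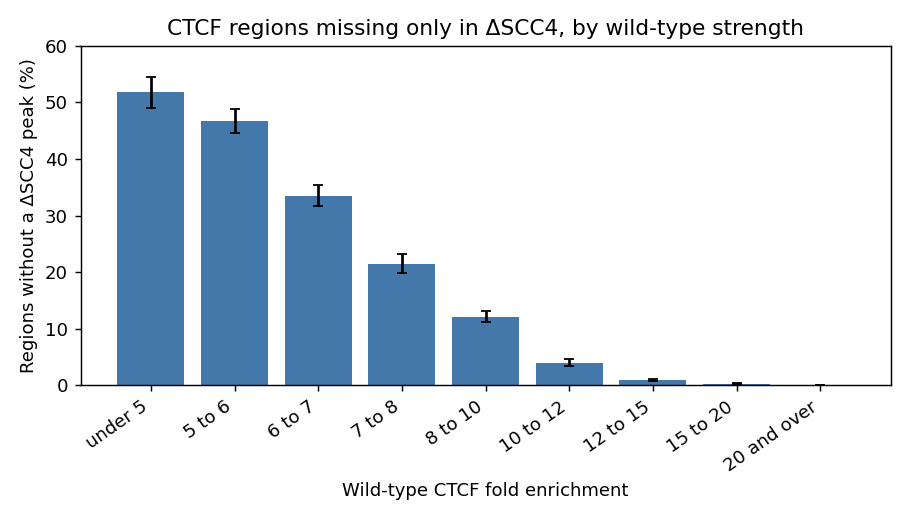
Share of CTCF regions (percent, from 0) with a peak in wild-type, ΔWAPL and double-knockout cells but none in ΔSCC4, by wild-type CTCF fold enrichment (ratio). Error bars are 95% Wilson intervals for counting error. The share falls from 51.8% under 5 to 0 of 6146 regions at 20 and over.

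How many reads such a region would give in the ΔSCC4 library was worked out from the recovered pileups. Wild-type summits of ΔSCC4-missing regions, scaled to the average coverage of the ΔSCC4 library, stood for a median of 15.8 reads (quartiles 12.4 and 20.3). The smallest ΔSCC4 peak had 7 reads, and 5% of ΔSCC4 peaks had 11 or fewer. Without any change, 340 ΔSCC4-missing regions (9.15%) would fall to 11 reads or fewer. At shared regions, summit coverage relative to the library average was 0.800-fold in ΔSCC4 against wild-type at the median, and with that factor 1381 regions (37.2%) would do so. That factor came from regions that were mostly stronger. At shared regions of wild-type fold enrichment 5 to 6 the ratio was 0.999, at 6 to 7 it was 0.885 and at 8 to 10 it was 0.778. These regions had to hold a ΔSCC4 peak, so the factor for weak regions is not known. The lists give no signal outside peaks, so a weakened site and an empty site cannot be told apart.

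In the 2 lines without WAPL, CTCF coverage at ΔSCC4-missing regions was close to wild-type. This is a description, since the rule required a peak in all 3 genotypes and a region that lost it in either line was not a member. The median ratio of normalised summit pileup was 1.03 for ΔWAPL and 1.09 for double-knockout cells, against 0.815 and 0.911 at shared regions. This contrast went with strength. At wild-type fold enrichment of 5 to 6, the ratio in ΔWAPL cells was 1.07 at ΔSCC4-missing and 1.10 at shared regions, and at 8 to 10 it was 0.86 and 0.92. The 2 classes were thus closer among regions of like strength.

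Cohesin at these regions was measured in the SMC1 libraries, which the rule did not use. SMC1 peaks were rare there in wild-type cells, frequent without WAPL, and nearly absent in ΔSCC4 cells. In wild-type cells 219 of the 3715 ΔSCC4-missing regions held an SMC1 peak, or 5.90% (95% Wilson interval 5.18 to 6.70), against 32.8% of all CTCF regions. In ΔWAPL cells the share was 35.5% (34.0 to 37.03), against 52.8% of all CTCF regions. In ΔSCC4 cells it was 1.59% (1.23 to 2.04), against 22.9%. In double-knockout cells it was 24.7% (23.4 to 26.1), against 46.5%. In each genotype the share was below that of CTCF regions at large, by more than counting error. The Wilson intervals cover counting error only, and the reads behind them carry no molecular identifiers.

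The difference between lines with and without WAPL was large relative to the lower level. From wild-type to ΔWAPL the share with an SMC1 peak was 6.02-fold higher at ΔSCC4-missing regions, while at shared regions it went from 49.5% to 72.1%. From ΔSCC4 to double-knockout cells it was 15.6-fold higher at ΔSCC4-missing regions and went from 34.9% to 66.6% at shared regions. The 15.6-fold value starts from only 59 regions with an SMC1 peak in ΔSCC4 cells. Shared regions were mostly stronger. Those of wild-type fold enrichment 5 to 6 went from 9.03% to 33.1% and from 6.28% to 22.8% in the same 2 comparisons. At ΔSCC4-missing regions the share in ΔSCC4 cells was 0.269 times that in wild-type cells. In double-knockout cells it was 0.697 times that in ΔWAPL cells. The regions had been chosen for lacking a CTCF peak in this ΔSCC4 clone. Neither difference between the backgrounds could be tested with 1 library per group.

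Regions missing only in another genotype, whose median fold enrichment was 5.39 to 6.07 where they had a peak, gave a further reference. At the 611 regions missing only in wild-type, the SMC1 share was 4.58% with the wild-type SMC1 list, 21.8% (18.7 to 25.2) with that of ΔWAPL, 3.44% with that of ΔSCC4 and 16.4% with that of the double knockout. At the 599 missing only in ΔWAPL it was 12.5% in ΔWAPL cells (10.1 to 15.4), and at the 345 missing only in double-knockout cells it was also 12.5% (9.39 to 16.4). The ΔWAPL share at ΔSCC4-missing regions, 35.5%, lay above all 3 intervals. The classes were not matched, since regions missing only in ΔWAPL were chosen for lacking a ΔWAPL CTCF peak. Median ΔWAPL CTCF fold enrichment was 5.94 at those missing only in wild-type and 5.74 at those missing only in double-knockout cells. At ΔSCC4-missing regions it was 6.86. The ΔSCC4 share at ΔSCC4-missing regions, 1.59%, lay within the interval of the regions missing only in ΔWAPL (1.52 to 4.09) and below those of the other classes.

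**Figure D3:**
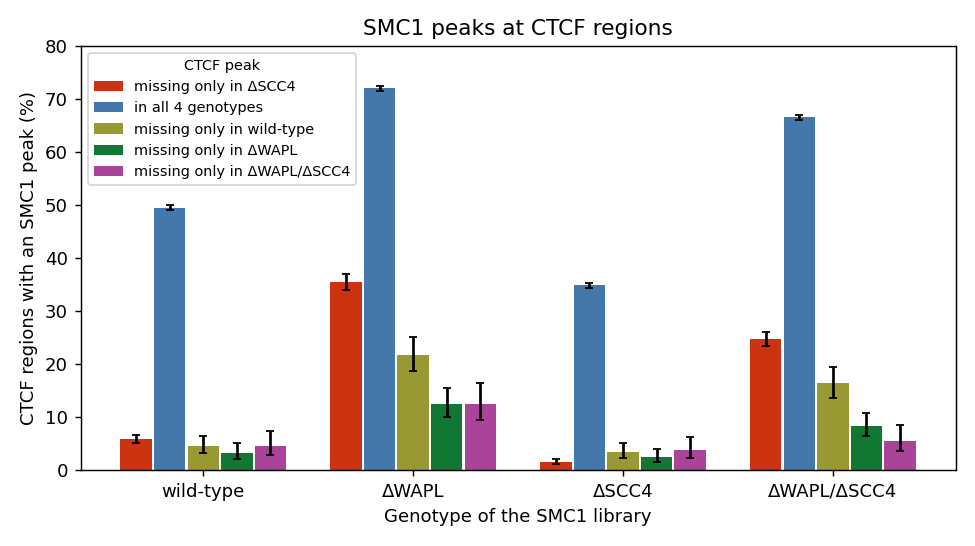
Share of CTCF regions (percent, from 0) that overlap an SMC1 peak in each genotype's SMC1 library, for ΔSCC4-missing regions, shared regions and regions missing only in each other genotype. Error bars are 95% Wilson intervals for counting error, with 1 library per genotype. ΔSCC4-missing regions go from 5.90% in wild-type to 35.5% in ΔWAPL and stand at 1.59% in ΔSCC4.

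SMC1 peaks were more frequent at stronger CTCF regions, so the comparison was repeated among regions of like wild-type CTCF fold enrichment. In wild-type cells the SMC1 share stayed lower at ΔSCC4-missing than at shared regions in every range. It was 4.23% against 9.03% at fold enrichment 5 to 6, 10.5% (8.17 to 13.4) against 17.2% (16.1 to 18.5) at 8 to 10, and 15.1% (7.85 to 27.1) against 47.0% (45.8 to 48.3) at 12 to 15. In ΔWAPL cells the ratio of the shares was nearer to 1, with 29.3% against 33.1%, 39.8% (35.7 to 44.03) against 47.4% (45.9 to 49.03) and 71.7% (58.4 to 82.0) against 73.8% (72.6 to 74.9) in the same ranges. The ΔWAPL intervals were thus apart at 8 to 10 and overlapping at 12 to 15. In the same range 0 of 53 ΔSCC4-missing regions had an SMC1 peak in ΔSCC4 cells, which allows up to 3 counts or 5.66%, against 28.6% of shared regions. Among the 21 strongest, with wild-type fold enrichment of 15 to 20, SMC1 had a peak at 8 for wild-type, 15 for ΔWAPL, 1 for ΔSCC4 and 15 for double-knockout cells. The ΔWAPL share there was 71.4% (50.04 to 86.2) against 88.7% (88.01 to 89.3) of shared regions, again apart. The shared regions of that range held SMC1 in 69.0% for wild-type, 48.1% for ΔSCC4 and 84.9% for double-knockout cells.

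**Figure D4:**
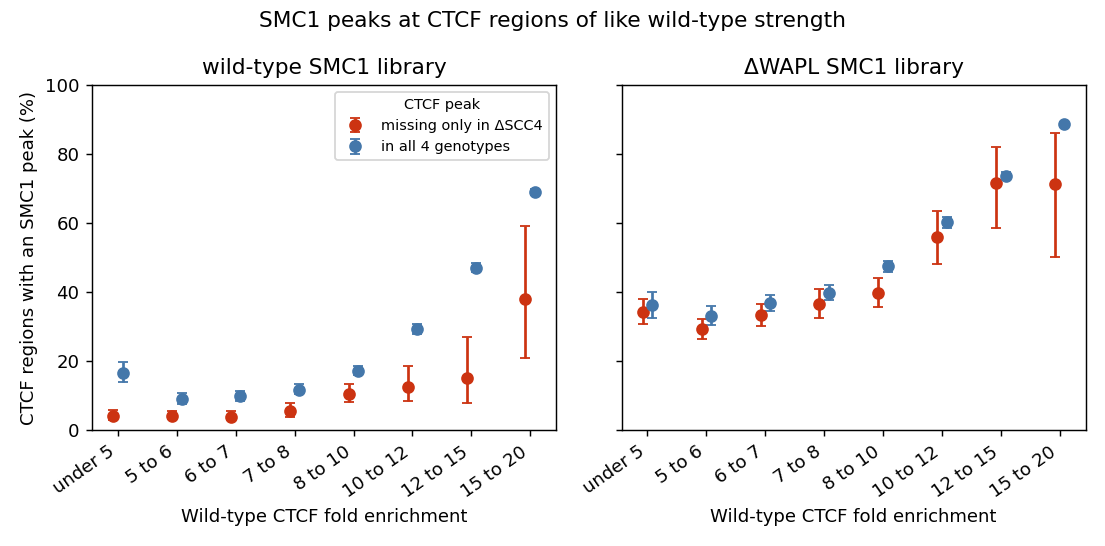
Share of CTCF regions (percent) with an SMC1 peak in the wild-type (left) and ΔWAPL (right) SMC1 libraries, by wild-type CTCF fold enrichment (ratio), for ΔSCC4-missing and shared regions. Points are shares and bars 95% Wilson intervals for counting error. At 12 to 15 the classes stand at 15.1% and 47.0% in wild-type and at 71.7% and 73.8% in ΔWAPL cells, and at 15 to 20 the ΔWAPL shares are 71.4% and 88.7%.

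Counted by combination of genotypes, 2121 ΔSCC4-missing regions (57.1%) had no SMC1 peak in any genotype, against 20.8% of shared regions. SMC1 was found in ΔWAPL alone at 603, or 16.2% against 8.86% of shared regions. It was found in both lines without WAPL at 515, or 13.9% against 12.9%, and in double-knockout cells alone at 234, or 6.30% against 4.47%. Another 107 had an SMC1 peak in the same 3 genotypes as the CTCF peak, or 2.88% against 14.5%. Of the 219 that had one in wild-type cells, 36 also had one in ΔSCC4 cells, or 16.4% (12.1 to 21.9), against 63.3% (62.6 to 64.0) at shared regions. Of the 1318 with one in ΔWAPL cells, 50.8% (48.1 to 53.5) had one in double-knockout cells, against 83.8% at shared regions. ΔSCC4-missing regions had been chosen for lacking a ΔSCC4 CTCF peak, while shared regions had to hold one. SMC1 peaks often lie at CTCF peaks, and strength was not matched in these counts. SMC1 peaks at ΔSCC4-missing regions were lower than those at shared regions, with a median fold enrichment of 4.91 against 6.42 in wild-type and 5.57 against 7.23 in ΔWAPL cells.

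The 59 regions with an SMC1 peak in ΔSCC4 cells held it where that genotype's list gave no CTCF peak. Some of the 59 overlapped an IgG peak, where the SMC1 signal may not be specific. With such regions removed, the share was 1.38% of 3703 ΔSCC4-missing regions, against 1.59% of all 3715. Away from IgG peaks, the highest-ranked region lay in an intron of CHN1, which encodes a Rac GTPase-activating protein. CTCF fold enrichment was 8.60, 8.61 and 9.53 in the wild-type, ΔWAPL and double-knockout libraries. SMC1 fold enrichment was 6.26, 9.58 and 5.90 in the same order and 4.28 for ΔSCC4. The second lay in a UTR of the zinc-finger gene ZNF319, with an SMC1 value of 5.05 in ΔSCC4 and 7.97 in ΔWAPL cells but no SMC1 peak in wild-type cells. In an intron of DIO2, the deiodinase that activates thyroid hormone, SMC1 values were 5.43, 5.78 and 8.22 in these libraries and 4.49 for ΔSCC4. At 4.28 and 4.49, the CHN1 and DIO2 peaks were lower in ΔSCC4 than in any other genotype. The fifth by rank, between genes with FAT1 as the nearest coding gene, had 4.99 for ΔSCC4, above the wild-type value of 4.70.

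The CTCF motif was weaker at ΔSCC4-missing regions. A match was counted when the best score within 50 bp of the summit passed the score that 5% of flanking windows reach. On even-numbered chromosomes, which were not used to learn the motif, 67.2% of 1662 ΔSCC4-missing regions held one (64.9 to 69.4). The share was 85.6% (85.1 to 86.2) at shared regions and 75.1% at all CTCF regions. The median best score was 10.0 bits against 14.2 at shared regions. Turned around, 22.8% of regions with a score under 0 were missing in ΔSCC4, 13.1% with 8 to 12 bits and 3.10% with 16 bits or more.

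The motif difference went with the height of the peaks. At wild-type fold enrichment of 8 to 10, 72.0% of ΔSCC4-missing (66.1 to 77.3) and 75.04% of shared regions (72.9 to 77.05) held a match. At 5 to 6 the shares were 64.5% (59.9 to 68.9) and 56.0% (51.7 to 60.2). Under 5 they were 54.0% (48.2 to 59.7) and 43.9% (38.4 to 49.5). At 5 to 6 and under 5 the share was thus higher at ΔSCC4-missing regions, the reverse of the classes as a whole. It was also higher at 6 to 7 (70.8% against 66.8%), 7 to 8 (69.0% against 67.8%) and 10 to 12 (84.1% against 83.3%). At 15 to 20 it was 9 of 9 against 94.5%. Only at 8 to 10 and at 12 to 15 (84.6% against 89.4%) was it lower. The intervals overlapped in all of these ranges, which is no test of a difference. Regions missing only in wild-type, ΔWAPL or double-knockout cells held a match in 61.5%, 55.8% and 50.6%. A CpG dinucleotide, the site of DNA methylation, lay in 33.4% of the matches at ΔSCC4-missing regions (31.6 to 35.3) and in 41.9% at shared regions. At fold enrichment of 8 to 10 those shares were 31.6% and 35.3%. Matches lay on the plus strand in 50.5% of both classes.

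**Figure D5:**
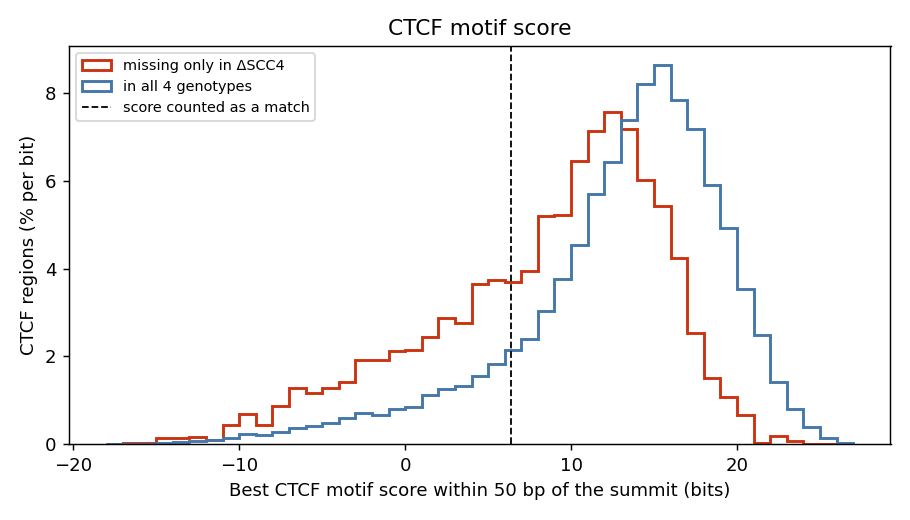
Distribution of the best CTCF motif score (bits) within 50 bp of the summit, as percent of regions per bit, for ΔSCC4-missing and shared regions. The dashed line is the score counted as a match, and the medians are 10.0 and 14.2 bits.

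Some strong ΔSCC4-missing regions held no match. The highest-ranked of these lay between genes on chromosome 10, at chr10:84926076-84926480, 366808 bp from the start of NRG3, and had CTCF fold enrichment of 14.2, 17.5 and 17.0 for wild-type, ΔWAPL and the double knockout. Another, in an intron of the zinc transporter gene SLC39A14, had values of 13.1, 11.5 and 12.7. The third, at chr2:208337886-208338270 in a non-coding gene, scored 6.37 bits, just under the 6.38 bits that count as a match.

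ΔSCC4-missing regions lay mostly in introns (55.5%) and between genes (33.8%), as shared regions did (53.3% and 36.4%). Coding exons, UTRs and non-coding exons held 3.31%, 3.71% and 3.74%. Within 1 kb of a transcript start lay 17.8% of them (16.6 to 19.1), against 20.1% of shared (19.7 to 20.5) and 19.5% of all CTCF regions. At wild-type fold enrichment of 8 to 10 the shares were 15.3% and 20.0%. The share that ΔSCC4 lacked was 8.68% within 1 kb of a start, 10.9% at 20 to 50 kb, 12.8% at 50 to 100 kb and 15.4% beyond 100 kb. Base composition was alike, with a median of 46.3% G or C in 300 bp against 46.7% at shared regions. IgG peaks overlapped 12 ΔSCC4-missing regions (0.323%) against 0.944% of shared regions.

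At protein-coding starts, the strongest regions after NFATC4 and PCDHA11 lay at DAB1, KIFC3 and DYNC1H1. At DAB1, an adaptor of reelin signalling, CTCF fold enrichment was 12.8, 13.4 and 13.7 for wild-type, ΔWAPL and the double knockout, and SMC1 had a peak in ΔWAPL alone, at 10.6. At KIFC3, a kinesin motor gene, CTCF values were 10.6, 15.8 and 16.01, with SMC1 at 10.4 in ΔWAPL and 7.84 in double-knockout cells. DYNC1H1, which encodes the heavy chain of cytoplasmic dynein, had CTCF values of 9.71, 16.3 and 12.1 and SMC1 values of 4.41, 12.6 and 6.65. At KIFC3 and DYNC1H1, among the 3 genotypes with a peak, CTCF was thus lowest in wild-type cells, and SMC1 was highest in ΔWAPL cells.

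The clustered protocadherins, cell-surface proteins of which many promoters are bound by CTCF and chosen by looping to a distant enhancer, held the largest number among the gene lists examined. Within 10 kb of the 54 genes, 7 of 45 regions were ΔSCC4-missing, or 15.6% (7.75 to 28.8), against 9.69% of all regions found in the other 3 lists, a value inside that interval. All 7 lay within 100 bp of a protocadherin start, each at a different gene. A match was found at 4 of them, and the 3 sequences not given above are printed because such promoters carry related CTCF sites.
PCDHA12, chr5:140254582-140255056: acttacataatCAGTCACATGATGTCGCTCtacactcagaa
PCDHB2, chr5:140473852-140474370: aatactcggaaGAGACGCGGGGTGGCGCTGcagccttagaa
PCDHB14, chr5:140602519-140603132: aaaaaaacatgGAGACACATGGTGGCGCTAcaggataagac
These 3 matches and that of PCDHA11 lay on the plus strand, the strand of the genes.

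Of the 7, PCDHA11 had the highest CTCF fold enrichment for wild-type and ΔWAPL, with 14.5, 14.2 and 14.5 for wild-type, ΔWAPL and the double knockout. A second CTCF peak that lay 284 bp downstream, in the same gene, was found in all 4 genotypes, with values of 8.998, 8.66 and 8.85 in the same order and of 11.5 for ΔSCC4. That second region also held a ΔSCC4 SMC1 peak, at 4.12. Of the pair, the ΔSCC4 lists thus lacked the peak at the start site and held the other. In ΔWAPL cells the SMC1 value was 6.79 at both regions, so a single SMC1 peak may overlap both. PCDHA12, the next gene, had CTCF values of 4.32, 11.5 and 5.81, and PCDHB2 had 6.89, 11.2 and 18.1. PCDHB14 had values of 9.18, 12.5 and 11.98. The other 3 were at PCDHGA6 (10.5, 5.66 and 5.87), PCDHGB4 (6.53, 7.17 and 5.41) and PCDHGA9 (9.11, 7.09 and 6.86), none of which held a motif match. SMC1 had no peak in any genotype at these 3 or at PCDHB14. Other promoters of the clusters had a ΔSCC4 peak. Its height was similar to wild-type at PCDHA13, with 13.9 against 14.8, and at PCDHB3, with 21.4 against 20.5. It was lower at PCDHB8, with 7.55 against 14.2, and at PCDHB11, with 6.61 against 11.4. It was higher at PCDHB12, with 12.6 against 7.16, and at PCDHB15, with 9.69 against 6.06.

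Near the 16 genes of cohesin and its regulators, 1 of 44 regions was ΔSCC4-missing, or 2.27% (0.402 to 11.8), an interval that holds the 9.69% of all regions. It lay in NIPBL, which encodes SCC2, the partner of SCC4, 491 bp from a start site. CTCF fold enrichment there was 6.68, 4.77 and 5.32 for wild-type, ΔWAPL and the double knockout, with no SMC1 peak in any genotype.
Near the 22 imprinted genes, 2 of 36 regions were ΔSCC4-missing, or 5.56% (1.54 to 18.1), which also holds that value. The region in H19, an imprinted non-coding gene, lay 1331 bp from a start site, with CTCF values of 6.90, 6.48 and 6.10 and an SMC1 peak of 4.80 in double-knockout cells alone. In GNAS, which encodes a G-protein subunit, CTCF values were 6.69, 9.26 and 7.47, and SMC1 had a peak of 5.99 in ΔWAPL and of 4.37 in double-knockout cells. The matches of these imprinted genes held 4 and 2 CpG dinucleotides.
H19, chr11:2024110-2024419: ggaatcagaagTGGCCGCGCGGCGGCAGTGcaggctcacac
GNAS, chr20:57443783-57444089: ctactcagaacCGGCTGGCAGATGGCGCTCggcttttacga
Within 10 kb of the 39 HOX genes, 0 of 23 regions were ΔSCC4-missing, which allows up to 3 counts or 13.04%.

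ΔSCC4-missing regions were spread over the genome but not evenly. The share of regions that ΔSCC4 lacked was 14.4% on chromosome 21 (11.2 to 18.3), 14.1% on chromosome 13 (11.998 to 16.4), 13.4% on chromosome X (11.8 to 15.2) and 12.9% on chromosome 18. It was lowest on chromosome 19, with 6.19% (5.03 to 7.61). Among neighbours along a chromosome, the region after a ΔSCC4-missing region was also missing in 12.8% of cases (11.8 to 13.9), against 9.36% (9.05 to 9.67) after a shared region. Without chromosome X these values were 12.1% and 9.26%. Still, 2847 of 3713 regions on chromosomes 1 to 22 and X stood alone, and 866 (23.3%) lay in runs of 2 or more.

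The longest runs marked stretches in which the ΔSCC4 CTCF list was almost empty. There were 17 runs of 4 or more, with 79 ΔSCC4-missing regions. Their spans held 4 ΔSCC4 CTCF peaks, against 84 for wild-type, 93 for ΔWAPL and 93 for double-knockout cells. SMC1 had 1 ΔSCC4 peak there, against 9, 35 and 32. In 14 of the 17 the ΔSCC4 lists held neither a CTCF nor an SMC1 peak. The runs were chosen for missing CTCF peaks after the values were seen, and SMC1 peaks often lie at CTCF peaks, so these counts are a description.

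A run of 6 regions in 533 kb on chromosome 18 reached from LINC00668 to beyond LAMA1, which encodes a laminin chain, with wild-type values of 4.32 to 15.8 and SMC1 peaks at 4 in ΔWAPL cells. The longest, of 7 regions, covered 2493 kb on chromosome 5. The nearest coding genes of its regions were ADAMTS16 and the homeobox genes IRX1, IRX2 and IRX4. Its span held 2 ΔSCC4 CTCF peaks, against 8 for wild-type.

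Few ΔSCC4-missing regions were near misses of the merging rule. The median distance to the nearest ΔSCC4 CTCF peak was 21298 bp, and 120 regions (3.23%) had one within 1 kb. The 3 nearest were 20 bp away at FLOT2, 24 bp at SAPCD2 and 45 bp at TTC3. Just outside the rule stood shared regions whose ΔSCC4 peak was the weakest. These lay in LINC03000 and TTC39A, with 7 reads at the ΔSCC4 summit, and in SKIC8, with 10 reads, at −log10 q of 1.84, 1.96 and 2.05. Their wild-type fold enrichment was 6.24, 5.66 and 6.88, within the quartiles of the ΔSCC4-missing regions.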

How the data were processed

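ChIP-seq peak lists of CTCF, SMC1 and IgG from 4 HAP1 genotypes were analysed, 1 library per genotype and antibody, grouped by their titles. The authors mapped single-end reads to hg19 with Bowtie2 and called peaks with MACS2 (version 2.1.1 in the submitters' processing notes). The calling threshold is not given in the sources used here. The deposited fold enrichment is a ratio, (pileup + 1)/(local background + 1), and the deposited values of −log10 p and −log10 q hold its p-value and adjusted q-value. The methods name IgG as the control. Yet the backgrounds above each list's floor matched whole read counts in 10 kb at the library's own scale. Fold enrichment was therefore read as relative to that library, but whether IgG was used was not settled.

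Whole-number pileups were solved from fold enrichment and −log10 p, which was tested on simulated data, with 1 solution for at least 99.98% of the CTCF peaks of any list. The lowest background gave the average coverage, and depth per library was 6.53 to 8.41 reads per kb for CTCF and 6.79 to 8.41 for SMC1. The lists of the 4 genotypes were merged at 1 bp of overlap, and the strongest peak of a list represented a region. The summit was the wild-type one where there was one. Coordinates are 1-based. All 25 chromosome names of the files are in the GRCh37 reference and no peak runs past a chromosome end. Genes came from GENCODE 44 mapped to GRCh37. A 19-base motif was learned from the 1000 strongest wild-type peaks on odd-numbered chromosomes. Shares carry 95% Wilson intervals, and a count of 0 carries the limit of 3 counts. Analyses ran in Python 3.11.15 with pandas 2.3.3 and SciPy 1.17.1.

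Named regions were those on chromosomes 1 to 22 and X without an IgG peak, ranked by the lowest of 3 −log10 q values: the first 10, the first 5 with SMC1 in the same 3 genotypes or in ΔSCC4, the first 5 within 1 kb of a coding start, the first 3 without a match, the 3 on each side of the rule, and up to 5 per gene list, all 7 being given for the protocadherins. The regions and lists were chosen with earlier results of these data known. Runs and genes with the most regions were singled out after their values were seen. Some items are not reported here. The alternatives were stricter q or fold enrichment, other merging and absence rules, equal list lengths, and other SMC1, motif and start-site settings.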

Additional observations from a re-analysis of the deposited data

How the results depend on the processing

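The number of ΔSCC4-missing regions stayed within 1.5 times of 3715 except in 2 settings. It fell to 738 with a −log10 q of at least 10 in the 3 lists that had to hold a peak, and to 1319 with equal numbers of the strongest peaks. In these 2 settings the SMC1 share was 12.1% and 9.48% for wild-type, 60.3% and 53.0% for ΔWAPL and 47.2% and 40.3% for ΔWAPL/ΔSCC4 cells, and 2.30% in ΔSCC4 cells in the first. The motif share was 76.4% and 75.5%, the share near a start 14.5% and 15.4%, and median fold enrichment 8.46 and 7.58 for wild-type, 9.66 and 8.86 for ΔWAPL and 9.56 and 8.69 for ΔWAPL/ΔSCC4 cells. With −log10 q or fold enrichment of at least 5 in each list, the SMC1 shares were 7.83% and 8.37% in wild-type, 41.2% and 41.9% in ΔWAPL, 2.12% and 2.21% in ΔSCC4 and 29.1% and 30.3% in ΔWAPL/ΔSCC4 cells, the motif shares 70.3% and 70.8%, and the medians 6.72 and 6.83, 7.53 and 7.60, and 7.47 and 7.61 in wild-type, ΔWAPL and ΔWAPL/ΔSCC4 cells. These settings keep the stronger peaks by construction and count a weaker ΔSCC4 peak as absent, and 2677 of 3347 and 2494 of 3309 regions were among the 3715. Counting SMC1 intervals within 500 bp gave 2.15% in ΔSCC4 cells. SMC1 peaks with a −log10 q of at least 5 gave 0.834% for ΔSCC4, 3.55% for wild-type, 29.2% for ΔWAPL and 18.9% for ΔWAPL/ΔSCC4 cells. The motif share was 48.5% at the score that 1% of flanking windows pass and 71.8% with 100 bp on each side. Near a start lay 40.1% at 5 kb and 13.001% with protein-coding starts only. In place of fold enrichment, recovered pileup over the library average was 12.9, 13.1 and 13.9 for wild-type, ΔWAPL and ΔWAPL/ΔSCC4 cells. In each setting the SMC1 share was lowest in ΔSCC4 and highest in ΔWAPL cells. No paired analysis was possible because each group held 1 library. Replicates and signal outside peaks were not analysed here.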

Other observations

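Counted by protein-coding gene, 1600 genes held the summit of a ΔSCC4-missing region, 1390 of them exactly 1, and 15 held at least 4. Of all 38337 regions found in the other 3 lists, 9.69% were ΔSCC4-missing. KAZN, a long gene whose product acts in cell junctions, held 7 of its 24 regions found in the other 3 lists. DCC, the netrin receptor, held 5 of 9, the tubulin-modifying AGBL1 held 5 of 11 and the transcription factor gene ZFHX3 held 5 of 16. In LHFPL2 all 4 regions found in the other 3 lists were missing in ΔSCC4. In PTPRN2 4 of 6 were missing, and in DPP6 and FMN2 4 of 7 each. The span of the run of 4 at LHFPL2 still held 1 ΔSCC4 CTCF peak and 1 ΔSCC4 SMC1 peak. These genes were picked for their counts after the values were seen, and no test was made.

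In 577 windows of 5 Mb with at least 20 regions found in the other 3 lists, the median share missing in ΔSCC4 was 9.62% (quartiles 6.82 and 12.8). The highest shares were 37.8% at 105 to 110 Mb (14 of 37 regions) and 37.5% at 85 to 90 Mb (9 of 24) of chromosome 13. On chromosome 18, 33.3% of 27 regions at 75 to 80 Mb were missing, the window that holds the strongest ΔSCC4-missing region of all.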
